A study of Mus musculus with 5 samples.

Results

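The Iroquois (Irx) homeobox family of the mouse holds 6 genes in 2 clusters, and all 6 were taken by symbol from the deposited table of 54532 genes. Irx1, Irx2 and Irx4 form the IrxA cluster on chromosome 13, and Irx3, Irx5 and Irx6 form the IrxB cluster on chromosome 8. RNA was sequenced from adipose-derived stem cells of wild-type mice on a chow diet, aged 12 to 14 weeks, whose subcutaneous (SAT) and visceral (VAT) fat was sorted from 30 mice in all. Endothelial and immune cells, marked by CD31 and CD45, had been gated out, and the remaining cells were sorted on CD26 and CD142. By title, the 5 libraries comprised SAT CD26+CD142-, SAT CD26-CD142+, VAT CD26+CD142+ and 2 libraries of VAT CD26-CD142+ cells, so 2 libraries came from SAT and 3 from VAT. The comparison of SAT with VAT asked how far the family differs between fat depots. The comparisons of gates asked whether it differs between progenitor populations within a depot.

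Irx proteins are transcription factors of the TALE class, whose homeodomain carries an extra loop of amino acids between its first and second helices. They pattern the heart, limb, kidney and nervous system during development, and genes of a cluster often share enhancers. In fat, IRX3 and IRX5 are best known from human genetics, where obesity-associated variants in an intron of FTO were linked to enhancers that act on both genes in adipocyte precursors.

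Positions were read from the mm10 coordinates of the table, and all 6 genes had the same start and end in GENCODE release M21. Irx1 (ENSMUSG00000060969) lies at chr13:71957921-71963723 on the minus strand, Irx2 (ENSMUSG00000001504) at chr13:72628820-72634198 on the plus strand and Irx4 (ENSMUSG00000021604) at chr13:73260479-73269608 on the plus strand. A gap of 665096 bases separates Irx1 from Irx2. In the other cluster, Irx3 (ENSMUSG00000031734) lies at chr8:91798525-91802067 on the minus strand, Irx5 (ENSMUSG00000031737) at chr8:92357625-92376286 on the plus strand and Irx6 (ENSMUSG00000031738) at chr8:92674288-92680956 on the plus strand. Irx3 and Irx5 are 555557 bases apart, and 130085 bases lie between Fto and Irx3.

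The homeobox, the coding stretch for the DNA-binding domain, is where the family members are most alike and where their reads are hardest to assign. It is shown for the 4 members that had counts, 5′ to 3′ in the direction of transcription, from GENCODE M21 transcripts. Each stretch of 189 bases lies within exon 2, at chr13:71959995-71960183 for Irx1, chr13:72630661-72630849 for Irx2, chr8:91800499-91800687 for Irx3 and chr8:92359624-92359812 for Irx5. Capitals mark the 37 positions at which the 4 sequences are not all the same, and the other 152 are shared.
Irx1: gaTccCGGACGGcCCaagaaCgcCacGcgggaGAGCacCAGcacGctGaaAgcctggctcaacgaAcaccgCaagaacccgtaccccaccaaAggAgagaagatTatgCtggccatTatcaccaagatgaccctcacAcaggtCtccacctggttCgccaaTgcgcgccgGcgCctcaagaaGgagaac
Irx2: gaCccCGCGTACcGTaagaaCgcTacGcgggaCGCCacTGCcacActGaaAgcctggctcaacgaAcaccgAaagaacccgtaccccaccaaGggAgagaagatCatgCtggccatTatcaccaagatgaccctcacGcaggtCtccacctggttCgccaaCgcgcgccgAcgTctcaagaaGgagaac
Irx3: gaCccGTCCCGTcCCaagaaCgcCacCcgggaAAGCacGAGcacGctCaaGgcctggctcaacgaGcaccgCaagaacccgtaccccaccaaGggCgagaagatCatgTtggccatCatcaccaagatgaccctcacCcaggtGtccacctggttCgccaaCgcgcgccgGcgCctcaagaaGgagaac
Irx5: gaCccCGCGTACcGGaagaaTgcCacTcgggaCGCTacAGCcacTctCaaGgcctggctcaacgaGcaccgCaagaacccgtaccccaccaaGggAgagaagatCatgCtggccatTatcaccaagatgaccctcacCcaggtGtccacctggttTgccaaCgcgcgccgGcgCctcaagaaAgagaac
Over the 6 members, the identity of these stretches ran from 83.1% to 91.0% of bases. Irx2 and Irx5, which stand in the middle of their clusters, were the most alike, with 172 of 189 bases identical. Irx1 and Irx3 shared 89.4%, and Irx1 and Irx2, neighbours in one cluster, shared 87.8%. The longest run of identical bases between any transcripts of Irx2 and Irx5 was 65 bases, and between Irx3 and Irx6 it was 88 bases. The read length and the treatment of reads with several matches are not given in the sources used here, so reads that fall wholly within such runs are uncertain between the paralogs.

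The RefSeq promoter table, on GRCm38.p6, held a window for 3 of the 6 members. The 250 bases upstream of Irx2 are shown because the noncoding gene Gm20554 begins 255 bases before the Irx2 start on the opposite strand, so that the stretch spans nearly all of the space between them. It lies at chr13:72628570-72628819 on the plus strand of mm10, and capitals mark CG dinucleotides.
Irx2 upstream: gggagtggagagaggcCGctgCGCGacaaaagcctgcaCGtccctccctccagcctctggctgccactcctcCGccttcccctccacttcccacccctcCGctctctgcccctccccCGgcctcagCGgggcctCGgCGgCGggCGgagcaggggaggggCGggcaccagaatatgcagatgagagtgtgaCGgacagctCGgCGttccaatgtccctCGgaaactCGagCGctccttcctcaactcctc
This stretch held 19 CG dinucleotides, against a median of 6 over the upstream stretches of 32851 windows, of which 19.7% had as many or more. Its GC content was 68.4%, against a median of 52.4%. Searched on both strands, GGGCGG had 2 matches and CCAAT had 1, while TATAAA had none. GGGCGG occurred in 32.7% of all windows, CCAAT in 33.9% and TATAAA in 12.4%. The sequence ACANNTGT, described for the fly Iroquois protein Mirror, had no match here and occurred in 6.31% of windows.

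Total counts ran from 21706345 to 25357403 per library. All 10 adipose progenitor markers had counts in each library, and their summed level was 78319 and 41152 CPM (normalised read counts scaled to the library total) in SAT and between 25304 and 36032 CPM in VAT. Col3a1 was the largest part of the SAT sums, at 41376 and 18038 CPM, against 7770 to 11120 CPM in VAT. Of the 10 markers, 7 were higher and 3 lower in SAT than in VAT, and 0 passed edgeR's test. The labels contradict each other on the SAT gates. The title of SAT library 1 says CD26+CD142- and its name says CD142. For SAT library 2 the title has CD26-CD142+, whereas CD26 stands in the name. Dpp4, which encodes CD26, stood at 6.57 CPM in SAT library 1 and 1006 CPM in SAT library 2. F3, which encodes CD142, stood at 618 CPM in SAT library 1 and 5.32 CPM in SAT library 2, so both genes went with the library names. No library was reassigned, and results that use the SAT gates are given by title and by name. The share of mitochondrial transcripts was 2.83% for SAT library 1 and 4.33% for VAT CD26-CD142+ library 1, against 0.554% to 0.633% in the other 3 libraries. No label tells if separate pools of mice were used for each library, so p-values may measure a technical spread.

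Subcutaneous cells carried transcripts of Irx1, Irx2, Irx3 and Irx5, and visceral cells carried few or none. Per length, the family summed to 49.8 and 135 TPM (length-corrected and scaled to the library) in the 2 SAT libraries. In VAT the sum was 1.28 TPM in CD26+CD142+ cells and 1.04 and 0.502 TPM in CD26-CD142+ cells. The mean was 92.3 ± 60.1 TPM in SAT (SD, n = 2) and 0.940 ± 0.399 TPM in VAT (SD, n = 3), and the depots did not overlap. In these bulk libraries, a larger number of expressing cells and more RNA per cell cannot be told apart.

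**Figure D1:**
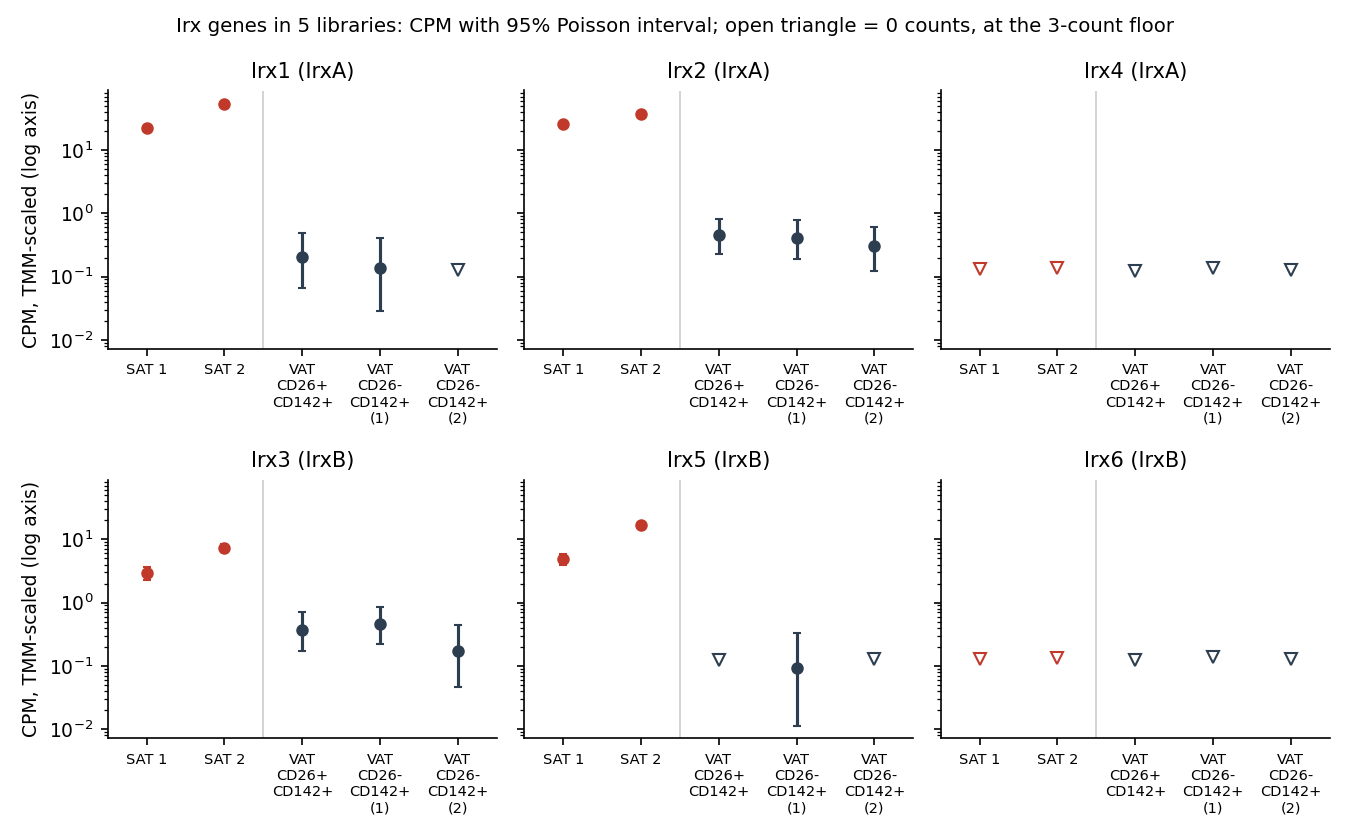
Level of each Irx gene in each library, in CPM on a log axis, with SAT libraries in red on the left and VAT libraries in dark blue on the right. Bars are exact 95% Poisson intervals and open triangles mark 0 counts, drawn at the level that 3 counts would give. Irx1, Irx2, Irx3 and Irx5 lie higher in both SAT libraries than in all 3 VAT libraries, while Irx4 and Irx6 had 0 counts in all 5.

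Irx1, the gene at one end of the IrxA cluster, acts in the patterning of heart, lung and limb. It had 527 and 1199 counts in the SAT libraries, or 22.8 CPM (95% Poisson interval 20.9 to 24.8) and 54.0 CPM (51.0 to 57.2). It had 5 counts, or 0.206 CPM, in VAT CD26+CD142+ cells and 3 and 0 counts in the VAT CD26-CD142+ libraries. Both SAT libraries stood far above all 3 VAT libraries, and the pooled counts, 1726 in SAT against 8 in VAT, gave a ratio of 330 (95% interval 167 to 766). The intervals cover counting error only.

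Irx2, in the middle of the same cluster, was the member with the most even level in SAT. It had 599 and 837 counts there, or 25.9 CPM (23.9 to 28.0) and 37.7 CPM (35.2 to 40.4). In VAT it had 11 counts (0.453 CPM) in CD26+CD142+ cells and 9 and 7 counts (0.412 and 0.301 CPM) in CD26-CD142+ cells. All 3 VAT libraries thus held a few Irx2 counts, and SAT exceeded them 81.4-fold (55.7 to 124). The averages were 31.8 ± 8.37 CPM in SAT (SD, n = 2) and 0.389 ± 0.0788 CPM in VAT (SD, n = 3).

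Irx4 is known for its role in the ventricles of the heart. It had 0 counts in all 5 libraries, which limits it to 0.124 to 0.137 CPM per library, the level of 3 counts.

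Irx3, the IrxB gene nearest to Fto, was the member with the lowest level in SAT among those detected. It had 67 and 163 counts in SAT, or 2.90 CPM (2.24 to 3.68) and 7.34 CPM (6.26 to 8.56). In VAT it had 9 counts (0.371 CPM) in CD26+CD142+ cells and 10 and 4 counts (0.458 and 0.172 CPM) in CD26-CD142+ cells. The depots did not overlap, and the pooled ratio of SAT to VAT was 15.3 (9.95 to 24.6), the smallest of the 4. An antisense gene, Irx3os, overlaps Irx3 by 1653 bases and had 5 and 9 counts in SAT and 0 in every VAT library. Whether reads were counted by strand is not given in the sources used here, so reads from this overlap cannot be told apart.

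Irx5, in the middle of the IrxB cluster and known from heart, limb and bone development, was close to absent in VAT. It had 112 and 372 counts in SAT, or 4.84 CPM (3.98 to 5.82) and 16.8 CPM (15.1 to 18.6). In VAT it had 0 counts in CD26+CD142+ cells and 2 and 0 in CD26-CD142+ cells. The pooled counts were 484 in SAT against 2 in VAT, a ratio of 370 whose interval ran from 102 to 3068. Irx6, the last gene of the cluster, known from the retina, had 0 counts in all 5 libraries.

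**Figure D2:**
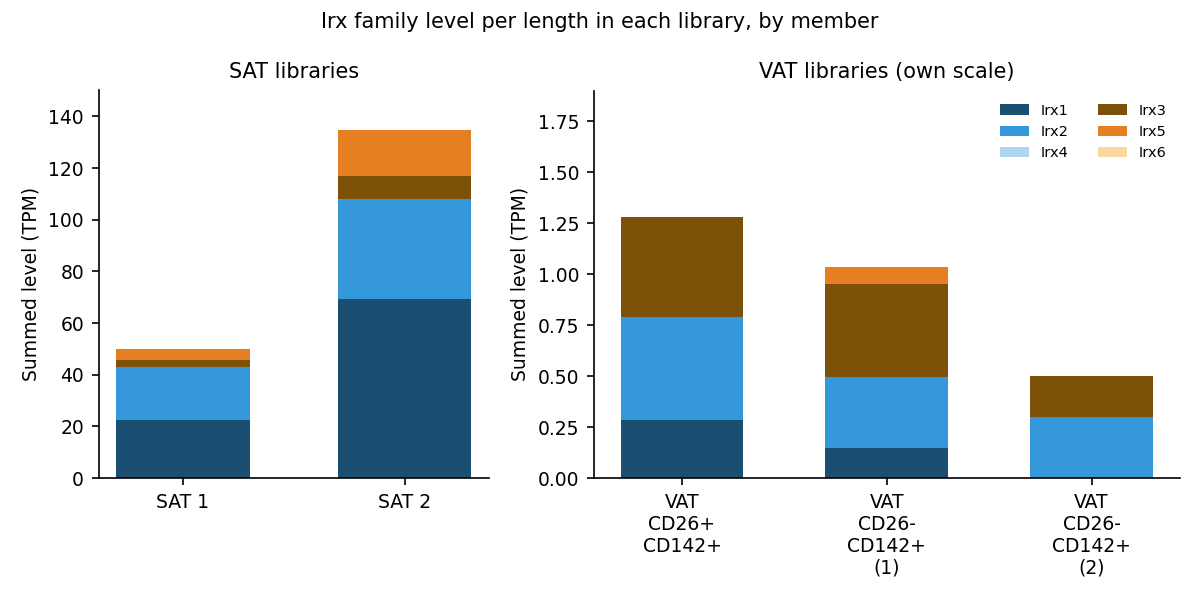
Summed level of the Irx genes per length in each library, in TPM, with each member as a coloured segment, SAT on the left and VAT on the right with its own scale. The sums are 49.8 and 135 TPM in SAT and between 0.502 and 1.28 TPM in VAT, and Irx1 and Irx2 make up most of each SAT bar.

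IrxA transcripts dominated the family in SAT. Irx1 and Irx2 together made up 86.5% of the family's TPM in SAT library 1 and 80.0% in SAT library 2, with Irx5 at 8.07% and 13.4% and Irx3 at 5.47% and 6.63%. The order of levels per length was the same in both SAT libraries: Irx1, Irx2, Irx5, Irx3. Irx1 and Irx2 could not be separated in SAT library 1, where their ratio per length was 1.10 (95% interval 0.978 to 1.24), but in SAT library 2 it was 1.79 (1.64 to 1.96). Irx5 exceeded Irx3 in both, by 1.48-fold (1.08 to 2.03) and 2.02-fold (1.67 to 2.44). The paired genes of the 2 clusters differed too, with Irx1 at 8.29 and 7.75 times Irx3 and Irx2 at 5.10 and 2.14 times Irx5. In VAT the family rests on few counts, and the IrxA share was 61.7% in CD26+CD142+ cells and 47.7% and 59.6% in CD26-CD142+ cells.

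Across all gates, 1 of the 4 tested members passed the test of SAT against VAT (edgeR quasi-likelihood F test, Benjamini-Hochberg adjustment over 15920 genes). Irx2 rose, by 6.33 on the log2 scale (SE 0.35, adjusted p = 0.0224). The background was low, since 0.0377% of all tested genes rose at this threshold. Irx1 stood 8.32 higher (SE 0.91, adjusted p = 0.146), Irx5 8.29 higher (SE 1.22, adjusted p = 0.185) and Irx3 3.92 higher (SE 0.69, adjusted p = 0.294), and these 3 did not pass. All 4 lay higher in both SAT libraries than in any VAT library, which held for 9.63% of tested genes. The 4 members passed the filter on low counts through their SAT libraries, so these counts describe them and are no support for the difference. DESeq2 called 4 of the 4, against 465 of all 15920 tested genes in either direction. With limma-voom 0 of the 4 and 0 of all tested genes were called. All 4 had an unadjusted p under 0.05 in edgeR, and the share of all genes in that fit was not computed. With the filter set at 5 CPM in at least 2 libraries, 716 of 10893 genes had such a p (edgeR). The caveat about the filter on low counts holds for this count too. The call for Irx2 was lost when any single VAT library was left out (adjusted p = 0.183 without the CD26+CD142+ library, 0.211 and 0.459 without CD26-CD142+ libraries 1 and 2), with limma-voom (adjusted p = 0.179), with CD26 by title as a term (adjusted p = 0.19) and with the libraries numbered 2 alone (adjusted p = 0.104). Its log2 change stayed between 5.95 and 6.61 over all alternatives.

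The comparison within the CD142+ gate depends on which SAT library is taken. With SAT library 2, titled CD26-CD142+ although its F3 level was 5.32 CPM, set against the 2 VAT CD26-CD142+ libraries, 4 of 4 passed edgeR's test, where 2.8% of all tested genes rose. Irx1 rose by 9.55 (SE 0.79, adjusted p = 7.05e-06), on 1199 counts in SAT against 3 in VAT, a ratio of 812 (277 to 3945). Irx2 rose by 6.71 (SE 0.58, adjusted p = 5.17e-06), or 106-fold (65.1 to 187). Irx5 rose by 8.39 (SE 0.97, adjusted p = 6.13e-05), on 372 counts in SAT against 2 in VAT, a ratio of 378 (104 to 3133). Irx3 rose by 4.53 (SE 0.88, adjusted p = 0.0036), or 23.7-fold (13.7 to 44.3).

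With SAT library 1 in that place, as the library names and sort genes have it, Irx1, Irx2 and Irx5 rose and Irx3 did not pass, so 3 of 4 were called where 1.36% of all tested genes rose. Irx1 was 8.30 higher (SE 0.78, adjusted p = 6.48e-05), Irx2 6.17 higher (SE 0.58, adjusted p = 3.33e-05) and Irx5 6.60 higher (SE 0.97, adjusted p = 0.0012). Irx3 stood 3.19 higher (SE 0.87, adjusted p = 0.0779), with a count ratio of 9.33 (5.19 to 18.0). The spread in both fits comes from the VAT CD26-CD142+ pair alone, and the same spread was assumed for the lone SAT library. Irx5 by title lost its call with DESeq2 (adjusted p = 0.24).

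**Figure D3:**
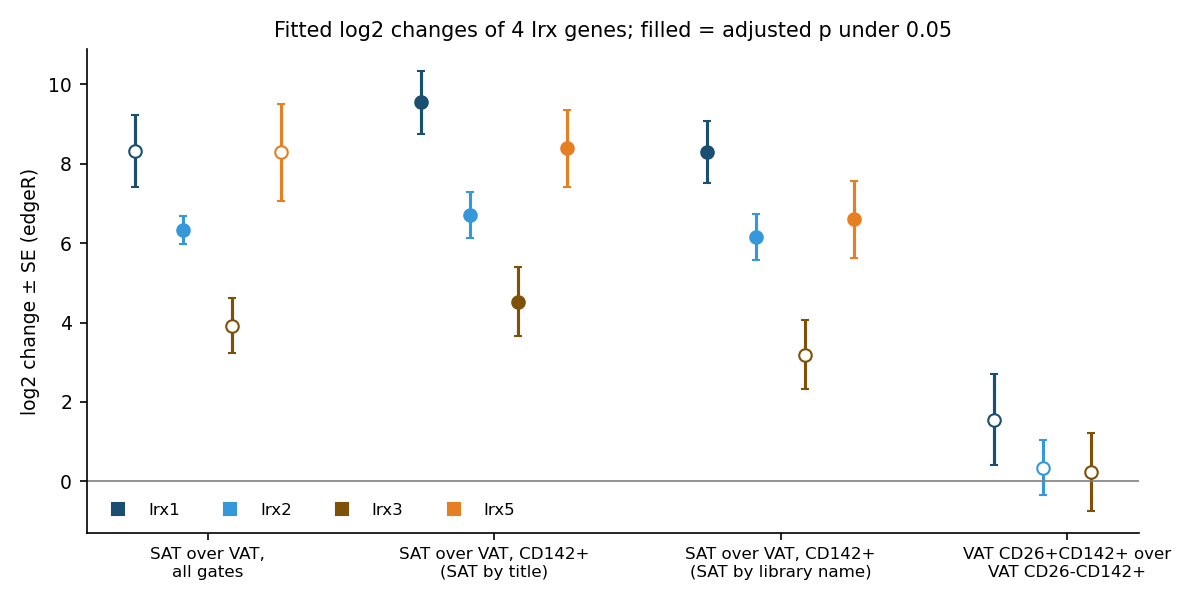
Fitted log2 change with its SE for Irx1, Irx2, Irx3 and Irx5 in 4 comparisons, filled where the adjusted p (edgeR) is under 0.05. Every SAT over VAT change lies above 3, whereas the changes of the VAT CD26+CD142+ library over the VAT CD26-CD142+ libraries lie below 2, and Irx5 is left out there because it rests on 0 against 2 counts.

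Among VAT cells, no member was called between gates. The background was 1.6% of tested genes changed in either direction, while 0 of 4 members passed with edgeR or DESeq2 and 0 of 4 had an unadjusted p under 0.05. Irx1 averaged 0.206 CPM in the VAT CD26+CD142+ library and 0.0687 ± 0.0972 CPM in the VAT CD26-CD142+ libraries (SD, n = 2), a ratio of 3.10 with an interval of 0.602 to 19.9. Irx2 gave a ratio of 1.28 (0.536 to 2.93) and Irx3 a ratio of 1.19 (0.456 to 2.96). Irx5 had 0 counts in the VAT CD26+CD142+ library and 2 in the VAT CD26-CD142+ pair. With so few counts, a difference of severalfold was not detectable for Irx1 or Irx5 at this depth. For Irx2 and Irx3 the intervals reach 2.93 and 2.96, and they cover counting error only.

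The 2 SAT libraries differed in all 4 members, with SAT library 1 lower. This is 1 library against 1 with no replicate check, so no test was made. The ratio of SAT library 1 to SAT library 2 was 0.422 for Irx1 (95% counting interval 0.380 to 0.467), 0.686 for Irx2 (0.617 to 0.763), 0.394 for Irx3 (0.292 to 0.527) and 0.289 for Irx5 (0.232 to 0.358). Irx2 was therefore the least and Irx5 the most uneven of the 4. A change was counted at 2-fold or more after adding 1 CPM, for genes whose higher level was 10 CPM or above. Irx1 and Irx5 were higher in SAT library 2 by this measure, as were 11.2% of the 9689 genes compared. Irx2 did not reach 2-fold, and Irx3 was below 10 CPM. By title SAT library 1 is the CD26+CD142- one, and by name and sort genes it is the CD142 one. Epithelial markers moved with this split, with a summed level of 229 CPM and 1 of 11 at 0 in SAT library 1, and 5.09 CPM and 3 of 11 at 0 in SAT library 2. Epcam, which defines that lineage, stood at 25.2 CPM in SAT library 1 and 0.0451 CPM in SAT library 2. Endothelial markers moved the other way, at 30.3 CPM in SAT library 1 and 312 CPM in SAT library 2, with 0 of 5 at 0 in each. Tek made up most of that sum, at 19.8 CPM in SAT library 1 and 290 CPM in SAT library 2, while Pecam1, which encodes the sort marker CD31, stood at 6.35 and 7.25 CPM. The share of mitochondrial transcripts, 2.83% in SAT library 1 and 0.554% in SAT library 2, and the number that ends the library name went with the split too. The part of these lists, of the mitochondrial share and of the library number in the difference was not tested.

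Whether the difference between the SAT libraries varied from that between the VAT gates was tested in the 4-group edgeR fit. These gate differences are not matched. Both CD26 and CD142 switch between the SAT libraries, while by title only CD26 switches in VAT. An effect of depot on the same gate therefore cannot be told from this test. By title, 0 of 4 members passed with edgeR or DESeq2 and 0 of 4 had an unadjusted p under 0.05, against a background of 6.61% of tested genes. The difference of log2 changes was -2.79 for Irx1 (SE 1.33, adjusted p = 0.292), -0.89 for Irx2, -1.58 for Irx3 and 1.41 for Irx5. By library name it was -0.30 for Irx1, 0.20 for Irx2, 1.10 for Irx3 and 4.99 for Irx5, and 0 of 4 passed there too, against a background of 0.251%, with unadjusted p from 0.0792 to 0.836. Irx2 and Irx3 changed sign between the 2 readings. Irx1 and Irx5 kept theirs, but their VAT gate differences rest on 5 against 3 counts and 0 against 2 counts. By library name the SE was 1.11 for Irx1 and 2.65 for Irx5, so no direction can be given for any of the 4.

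Of the markers of other cell types, the mesothelial sums overlapped between depots and the Schwann sums did not. The 11 mesothelial markers summed to 173 and 4.64 CPM in SAT, with 3 and 5 of 11 at 0, and to 363 CPM in VAT CD26+CD142+ cells and 116 and 172 CPM in VAT CD26-CD142+ cells, with 0 to 3 of 11 at 0. All 11 were tested across all gates, 4 higher and 7 lower in SAT, and 1 fell (Wt1, edgeR, adjusted p = 0.0224). Msln, which defines the lineage, had 0 counts in both SAT libraries, against 38.5 CPM in VAT CD26+CD142+ cells and 0.779 and 2.41 CPM in VAT CD26-CD142+ cells. Krt19 (63.6 CPM), Krt18 (46.6 CPM), Krt8 (45.7 CPM) and Krt7 (16.1 CPM) made up nearly all of the mesothelial sum in SAT library 1. Of these, Krt8, Krt18 and Krt19 are on the epithelial list too. The 5 Schwann markers summed to 40.7 and 54.9 CPM in SAT, with 0 and 1 of 5 at 0, and to 10.9 to 12.6 CPM in VAT, with 1 to 2 of 5 at 0. Mbp made up most of this in SAT library 2, at 51.1 CPM. Sox10, which defines the lineage, had 18 counts in SAT library 1 and 0 in the other 4 libraries. The epithelial sums overlapped between depots, at 229 and 5.09 CPM in SAT and 9.30 to 58.2 CPM in VAT. Trps1 made up most of the sum in the VAT CD26-CD142+ libraries, at 7.74 and 17.6 CPM. Epcam stood at 25.2 CPM in SAT library 1 and at most 0.0859 CPM in the other 4 libraries. Krt19 (25.5 CPM) and Trps1 (19.4 CPM) made up most of the epithelial sum in VAT CD26+CD142+ cells, where Epcam had 0 counts. The part of any of these lists in the Irx difference was not tested.

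Of 27 other genes within 500000 bases of the IrxA cluster 9 were tested, of which 5 were higher and 4 lower in SAT, with a median log2 change of 0.13. Of 43 around the IrxB cluster 10 were tested, of which 9 were higher and 1 lower, with a median of 1.11. By edgeR, 0 of these 19 passed across all gates, DESeq2 called 2 and limma-voom called 0. An unadjusted p under 0.05 (edgeR) was found for 6 of them, against 716 of 10893 genes with the filter at 5 CPM. Fto itself, an RNA demethylase that lies next to Irx3, averaged 60.9 ± 0.118 CPM in SAT (SD, n = 2) and 57.3 ± 3.22 CPM in VAT (SD, n = 3), a log2 change of 0.09 (SE 0.20, adjusted p = 1). Mmp2, a matrix metalloproteinase beyond Irx6, averaged 2958 ± 229 CPM in SAT and 1271 ± 520 CPM in VAT, with a log2 change of 1.22 (SE 0.47, adjusted p = 0.719).

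The neighbours with the largest changes were noncoding genes that start next to a member. Crnde (ENSMUSG00000031736, chr8:92326033-92356120, minus strand) lies 1504 bases upstream of Irx5 on the opposite strand. It stood at 6.70 and 5.50 CPM in SAT, against 0.247 CPM in VAT CD26+CD142+ cells and 0.183 and 0.258 CPM in VAT CD26-CD142+ cells. SAT thus exceeded VAT 26.5-fold (16.0 to 47.0) with no overlap, a log2 change of 4.70 (SE 0.46, adjusted p = 0.125) that did not pass across all gates. Within the CD142+ gate it rose by 4.60 by title (SE 0.83, adjusted p = 0.00217) and by 4.89 by library name (SE 0.84, adjusted p = 0.00355). Between the SAT libraries Crnde gave a ratio of 1.22 (0.955 to 1.56), library 1 over library 2, whereas Irx5 gave 0.289.

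Gm20554 (ENSMUSG00000093587, chr13:72626213-72628564, minus strand) is the long noncoding gene whose nearest end lies 255 bases from the start of Irx2, across the stretch shown above. It stood at 2.33 and 4.82 CPM in SAT, against 0.247 CPM in VAT CD26+CD142+ cells and 0 and 0.344 CPM in VAT CD26-CD142+ cells. The depots did not overlap, with a ratio of 17.6 (10.2 to 32.9) and a log2 change of 4.14 (SE 1.15, adjusted p = 0.508). In the CD142+ gate it rose by 4.75 by title (SE 1.21, adjusted p = 0.0347), while by library name it stood 3.70 higher and did not pass (adjusted p = 0.214). In that comparison by title, 1 of the 9 tested IrxA neighbours (Gm20554) and 2 of the 10 tested IrxB neighbours (Crnde and Rpgrip1l) rose. Of all tested genes 2.8% rose there. Crnde and Gm20554 had 8 counts or fewer in every VAT library and passed the filter on low counts through their SAT libraries. Their part of these counts therefore describes them and is no support for a difference. Rpgrip1l, a ciliary gene on the far side of Fto, rose by 1.88 (SE 0.48, adjusted p = 0.0263), but stood only 0.32 higher by name (adjusted p = 0.99).

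**Figure D4:**
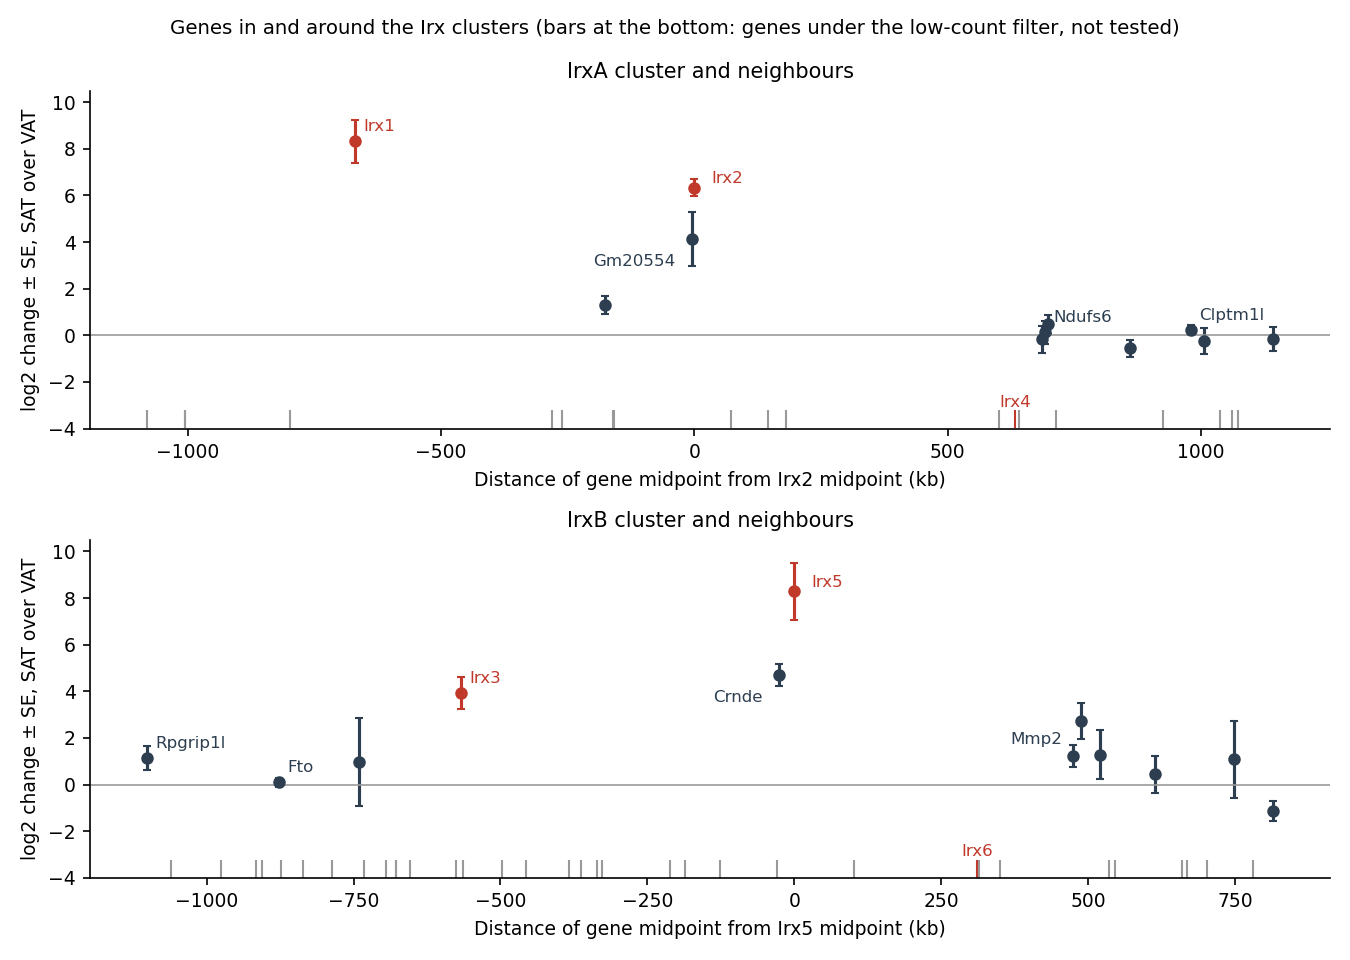
Log2 change of SAT over VAT across all gates, with its SE, for tested genes in and within 500 kb of the clusters, by distance of each gene's midpoint from that of Irx2 (top) or Irx5 (bottom), in kb. Irx genes are in red and ticks along the bottom mark genes with too few counts to test. Gm20554 and Crnde lie next to Irx2 and Irx5 with changes of 4.14 and 4.70, and Fto lies at 0.09.

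The other TALE genes, which include the Meis and Pbx partners of many homeodomain proteins, showed no common direction between depots. Of the 12 members of this class, 11 were tested, 5 of them higher and 6 lower in SAT, with a median log2 change of -0.24. With edgeR 0 of 11 passed, DESeq2 called 1 and limma-voom called 0. An unadjusted p under 0.05 (edgeR) was found for 2, against 716 of 10893 genes with the filter at 5 CPM. Meis1, a cofactor of Hox proteins, stood at 12.1 and 20.2 CPM in SAT, against 57.3 CPM in VAT CD26+CD142+ cells and 56.7 and 66.8 CPM in VAT CD26-CD142+ cells. Its log2 change across all gates was -1.90 (edgeR, SE 0.31, adjusted p = 0.237) and did not pass. Within the CD142+ gate by library name Meis1 fell, with a change of -2.36 (edgeR, SE 0.54, adjusted p = 0.028), and by title it did not pass (adjusted p = 0.0866). By name it was the 1 of 11 tested TALE genes that fell, where 375 of all 15920 tested genes were called in either direction. Mkx, the TALE factor of tendon, had 0 counts in both SAT libraries, against 4 in the VAT CD26+CD142+ library and 6 and 10 in the VAT CD26-CD142+ libraries, and was too low to test.

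Of 15 genes tied to the FTO, IRX3 and IRX5 axis of fat cell precursors, 11 were tested across all gates, with 6 higher and 5 lower in SAT and a median log2 change of 0.03. With edgeR 0 of 11 passed, DESeq2 called 1 and limma-voom called 0. An unadjusted p under 0.05 (edgeR) was found for 2, against 716 of 10893 genes with the filter at 5 CPM. The thermogenic genes Ucp1, Cidea, Dio2 and Elovl3 were too low to test, with 16 counts or fewer in every library. In the CD142+ gate by title, 2 of the 11 rose (Rpgrip1l and Tmem26) and 2 fell (Pparg and Ppargc1a). Of all 15920 tested genes, 1032 were called there in either direction, and 2.8% rose. By library name these 4 listed genes did not pass in edgeR, with adjusted p between 0.174 and 0.99. Tmem26, a surface marker of beige fat cells, stood at 8.99 and 35.0 CPM in SAT, against 2.84 CPM in VAT CD26+CD142+ cells and 1.65 and 3.61 CPM in VAT CD26-CD142+ cells. Like Irx1 and Irx5 it was higher in SAT library 2 than in SAT library 1, and within the CD142+ gate it rose by 3.73 by title (SE 0.57, adjusted p = 0.000581) and stood 1.77 higher by name (SE 0.57, adjusted p = 0.174).

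Pparg, the master regulator of fat cell differentiation, had levels that overlapped between depots. It stood at 34.6 CPM in SAT library 1 and 6.17 CPM in SAT library 2, against 2.18 CPM in VAT CD26+CD142+ cells and 30.7 and 26.9 CPM in VAT CD26-CD142+ cells. In VAT it fell in CD26+CD142+ cells, with a log2 change of -3.72 (SE 0.59, adjusted p = 0.00352), while no Irx gene was called in that comparison. Pparg also fell in SAT within the CD142+ gate by title, with a change of -2.22 (SE 0.54, adjusted p = 0.0173). Between the SAT libraries Pparg was 5.61 times as high in library 1 as in library 2, the reverse of the 4 detected Irx genes. Ppargc1a, a coactivator of mitochondrial genes, had 0 counts in SAT library 2 and 130 in the VAT CD26-CD142+ pair. It fell within the CD142+ gate by title (adjusted p = 0.00944), to at most 0.0469 times the VAT level against a floor of 3 counts in SAT library 2, and by name it did not pass (adjusted p = 0.675).

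For each detected member, the 5 genes whose profile over the 5 libraries was most like its own were listed from 12285 candidates. Likeness was the root-mean-square difference of centred log2(CPM + 0.5) values, so smaller means closer, and it is a description of 5 libraries only. The VAT levels of all detected members lay below the 0.5 CPM added, so near profiles can have unlike ratios of SAT to VAT. Irx1 averaged 38.4 CPM in SAT and 0.114 CPM in VAT, and Cxcl13, listed as near to it, averaged 487 and 12.5 CPM. The closest profiles to Irx1 were Adh7, a retinol-oxidising alcohol dehydrogenase (0.26), Irx2 (0.42), the B cell chemokine Cxcl13 (0.54), the decoy interleukin receptor Il1r2 (0.58) and the limb homeobox gene Shox2 (0.71). Adh7 averaged 75.1 ± 41.2 CPM in SAT (SD, n = 2) and 0.590 ± 0.123 CPM in VAT (SD, n = 3). Irx2 was nearest to Irx1 (0.42), followed by the cell adhesion gene Chl1 (0.46), Adh7 (0.49), Cxcl13 (0.51) and the chemokine Ccl8 (0.60).

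Closest to Irx5 were Chl1 (0.22), which was also second for Irx2, AW551984 (0.36), the limb and heart T-box gene Tbx5 (0.39), Prg4, which encodes lubricin (0.41), and Cxcl13 (0.45). Tbx5 averaged 13.1 ± 14.5 CPM in SAT and 0.0274 ± 0.0475 CPM in VAT. Closest to Irx3 were cyclin D1, Ccnd1 (0.19), the small GTPase Rab38 (0.19), Plac8 (0.20), the claudin Cldn10 (0.22) and the lysosomal protease Lgmn (0.23), and none of these was among the nearest of the other members. Among the members themselves the closest pair was Irx1 and Irx2 (0.42), then Irx2 and Irx5 (0.61), and the farthest was Irx1 and Irx3 (1.58).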

How the data were processed

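RNA was poly(A)-selected from 4 sorted populations in 5 libraries. The authors deposited raw read counts per Ensembl gene, not normalized, with gene length in bases as another unit. Per the submitters' processing notes, the build was mm10 and the tools included featureCounts 1.5.0-p3, HISAT2 2.0.5 and CASAVA. Libraries were grouped by title. Counts were scaled by trimmed mean of M values in edgeR 4.0.16 (R 4.3.3) to CPM. TPM was computed from the raw counts and the deposited lengths, without that scaling. Genes past filterByExpr (minimum count 10) numbered 15920, and 38612 were removed. Of the 6 Irx genes 4 passed that filter, and Irx4 and Irx6 had 0 counts.

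Differences were tested with edgeR's quasi-likelihood F test at an adjusted p of 0.05 (Benjamini-Hochberg, across the whole tested table), with 3 residual degrees of freedom for depot and 1 for the 4-group fit. The SE was taken as the absolute log2 change over the root of its F statistic. Ratio intervals are exact conditional and count intervals exact Poisson, both at 95%, and cover counting error only. DESeq2 1.42.0 and limma 3.58.1 (voom) were alternatives. All members were named by rule, with the 5 nearest profiles among protein-coding genes of at least 1 CPM on average, and genes of the neighbour, TALE, FTO axis and marker lists. Members and lists were chosen with earlier results of these data known.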

Additional observations from a re-analysis of the deposited data

How the results depend on the processing

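Over all alternatives with a value, Irx1, Irx2, Irx3 and Irx5 stayed higher in SAT than in VAT. Across all gates 8 genes of the whole table were called. That count was 70 with no filter on low counts, 465 with DESeq2, 0 with limma-voom, 5 with the library number as a replicate block, 0 with CD26 by title as a term, 83 with CD26 by library name and 0 with the libraries numbered 2 alone. It ran from 0 to 17 when 1 library was left out, with 17 without SAT library 1, 11 without SAT library 2 and 0 without each VAT library. At an unadjusted p under 0.05, the fits with 0 calls had 978 genes (limma-voom), 682 (CD26 by title), 1439 (numbered 2 alone) and 578 to 1005 (without a VAT library). The cause of these shifts was not tested. Irx2 kept its call under 8 of 14 tested alternatives, the replicate block included (edgeR, adjusted p = 0.0464); the labels do not say what the library numbers mark, so they were not taken as a pairing. Irx1 gained a call under 3 of 14, Irx5 under 2 of 13 and Irx3 under 1 of 13. With the libraries numbered 1 alone, an alternative chosen after seeing the data and without a test, the log2 changes were 7.31 (Irx1), 5.95 (Irx2), 2.64 (Irx3) and 5.63 (Irx5).

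Within the CD142+ gate, 1032 genes were called by title and 375 by library name. Between VAT gates the count was 254, and 491 with no filter. For the difference of gate effects it was 1053, against 1621 with no filter and 40 by library name, where Irx2 turned to 0.20 and Irx3 to 1.10. Between VAT gates Irx3 turned to -0.30 without VAT CD26-CD142+ library 2, and Irx5 had no value without library 1. Leaving out either of these libraries leaves the 4-group fit no residual degrees of freedom, so only values were computed. Depth limits the VAT values, where 3 counts correspond to 0.124 to 0.137 CPM.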

Other observations

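Other noncoding genes of the IrxB region had few counts. Gm21817, beside Crnde, had 9 counts in SAT library 2 and Gm45336, beyond Irx5, had 6 there, and both had 0 in the other 4 libraries. Gm45472, farther along the chromosome near Mmp2, had 23 and 13 counts in SAT, against 3 in VAT CD26+CD142+ cells and 2 and 3 in VAT CD26-CD142+ cells, and its log2 change across all gates was 2.73 (edgeR, SE 0.75, adjusted p = 0.489).

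Wt1, a transcription factor of visceral mesothelium and visceral fat progenitors, ran opposite to the Irx genes. It had 0 and 1 counts in the SAT libraries, against 112 CPM in VAT CD26+CD142+ cells and 113 and 154 CPM in VAT CD26-CD142+ cells. No library had both Wt1 and the Irx family high.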
